A study of Mus musculus with 4 samples.

Results

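Proteasome subunits were followed in liver RNA of HSL-null and wild-type female mice on 2 diets. They were taken as all probe sets annotated to a single gene whose symbol begins with Psma, Psmb, Psmc, Psmd, Psme or Psmf and a digit. This rule found 53 probe sets of 42 genes, of 8252 genes with such a probe set on the array. The genes Psmc3ip and Psme3ip1 match by their letters only and encode other proteins, so 40 subunit genes with 51 probe sets remained. Of these, 14 encode the constitutive core particle, 22 the regulatory particle and other regulators, and 4 (Psmb8, Psmb9, Psmb10 and Psme1) are inducible. Psme2, the partner of Psme1, was not analysed here, because its probe sets are annotated to more than 1 gene.

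The 4 groups were HSL-null mice on a high-fat diet (FD, 58% of energy from fat), HSL-null mice on a normal diet (ND, 11%), wild-type mice on FD and wild-type mice on ND. HSL-null mice carry a general knockout of hormone-sensitive lipase, the enzyme encoded by Lipe that hydrolyses stored acylglycerols. The mice were killed in the fed state at 8 months after 6 months on their diet, and each group was 1 pool of liver, from 4 mice for HSL-null on FD and from 6 mice for each other group, on 1 Affymetrix MG_U74Av2 array. The study asked what the loss of the enzyme does to metabolism of the liver. With 1 array per group there were no replicates and no test, so "higher" and "lower" describe these 4 pools, and in such bulk RNA fewer cells of a type and less RNA per cell cannot be told apart.

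The proteasome degrades proteins tagged with ubiquitin. Its core particle is a barrel of stacked rings, with alpha subunits forming the gated outer rings and beta subunits the inner rings that hold the proteolytic sites. The regulatory particle caps the barrel, recognises and deubiquitinates substrates, and unfolds them with a ring of ATPases. In cells exposed to interferon gamma, and constitutively in many immune cells, the inducible subunits Psmb8, Psmb9 and Psmb10 take the places of the constitutive catalytic subunits Psmb5, Psmb6 and Psmb7, and Psme1 forms part of an alternative cap. In mammals the transcription factor encoded by Nfe2l1 raises the genes of the whole complex together when proteasome activity is short.

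The values were MAS5 signals, linear and in arbitrary units, on arrays whose 2% trimmed means lay between 100.085 and 100.094. Signals under 6.1 were raised to that floor, and probe sets with a mean of at least 26.9 over the 4 arrays were kept, which left 4829 genes, each read by its brightest probe set. The error of a log2 ratio from 1 probe set was estimated as an SD of 0.298. This came from the disagreement between the 2 brightest probe sets of the same gene over 687 genes. The log2 ratios of the 38 kept subunits had SDs from 0.140 to 0.249 in the 4 comparisons, so 0.298 may overstate their error. The estimate of 0.298 is the sole one of error and leaves out error shared on an array and differences between mice. Lipe, whose knockout defines the groups, had signals of 15.9 on FD and 11.9 on ND in HSL-null liver, against 34.0 on FD and 28.0 on ND in wild-type liver. Its mean over the 4 arrays lay under 26.9, so Lipe was dim and not among the 4829 kept genes. The solution lot differed between the genotypes and was shared by the diets, and its effect cannot be told apart from that of genotype. Alb, the albumin gene that marks hepatocytes, had signals of 4680 on FD and 5382 on ND in HSL-null liver, against 4976 on FD and 6913 on ND in wild-type liver.

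Of the 40 subunit genes, 38 passed the filter, and Psmc4 and Psmd2 did not. Psmc4, an ATPase of the regulatory particle, had signals from 4.7 to 6.7, and Psmd2, a scaffold of the same particle, had signals from 3.8 to 10.0. Both lie near the floor on every array, so no ratio is given for them. The 38 genes include all 14 core genes, 20 of 22 regulatory genes and all 4 inducible genes, and 35 of them also passed a stricter filter at a mean signal of 97.1. Of the 38, 7 were read by a suffix probe set, whose probes may be shared with related transcripts. They were Psma3, Psmb4, Psmb5, Psmb7, Psmc3, Psmd9 and Psmd12.

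The subunits differed little among the 4 pools. The ratio of a subunit's highest to its lowest signal ran from 1.07 for Psma3 to 1.56 for Psmb5, with a median of 1.25. Only 2 of the 38 subunits, Psmb5 and Psme4, reached 1.5-fold between any pair of pools, against 28.4% of the 4829 kept genes and 19.9% of the 2519 genes past the stricter filter. None of the 38 reached 2-fold, against 6.9% of the kept genes and 4.17% past the stricter filter. In single comparisons, 2-fold higher and lower shares of kept genes were 1.86% and 0.953% for genotype on FD, 0.497% and 1.08% for genotype on ND, 0.828% and 0.621% for diet in HSL-null liver and 0.787% and 2.36% for diet in wild-type liver. The medians of the highest-to-lowest ratio were 1.34 over kept genes and 1.29 past the stricter filter.

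**Figure D1:**
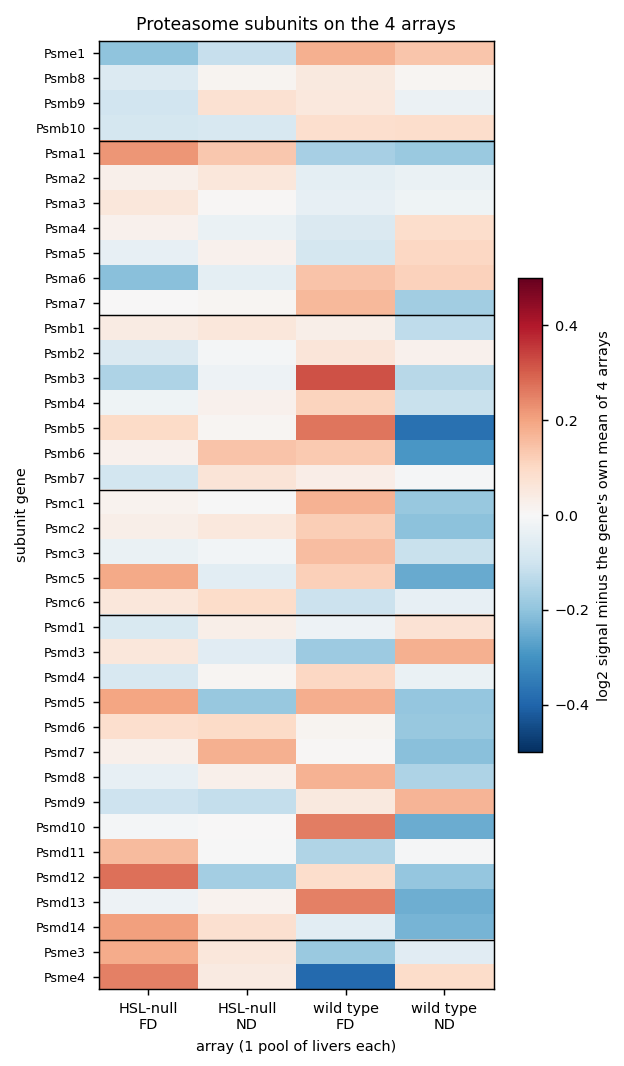
Log2 signal of the 38 kept subunits on the 4 arrays (columns, HSL-null FD, HSL-null ND, wild type FD and wild type ND), each minus the gene's own mean over the arrays. Black lines part, from the top, the inducible subunits, the alpha ring, the constitutive beta ring, the ATPases, the Psmd genes and the Psme activators. Wild type on ND was the lowest array for 18 of the 38 subunits, and HSL-null on ND for 1.

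Which pool gave a subunit its lowest signal was uneven. Wild-type liver on ND held the lowest of the 4 signals for 18 subunits, or 47.4%, where it held the lowest for 24.6% of kept genes and 28.5% past the stricter filter. HSL-null liver on FD was lowest for 10 subunits (20% of kept genes), HSL-null liver on ND for 1 (19.5%) and wild-type liver on FD for 9 (36.2%). The highest signal was on wild-type FD for 15 subunits, or 39.5%, against 25.5% of kept genes and 31.3% past the stricter filter. With quantile normalization, median scaling or cyclic loess, wild type on ND was the lowest array for 19, 22 and 19 subunits, and for 28%, 32.6% and 26.8% of kept genes.

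Measures that are not of the proteasome also differed among the arrays. The poly-A control transcripts Lys, Phe, Thr and Trp, bacterial RNAs used as labelling controls, had geometric mean signals of 1510 on FD and 1781 on ND in HSL-null liver, against 2179 on FD and 1412 on ND in wild-type liver, so that wild type on FD was the high array. The sums of the pancreas, hepatocyte and leukocyte markers were highest on wild type ND. The summed signal of 6 kept exocrine pancreas markers was 326.1 and 280.3 in HSL-null liver on FD and ND, against 270.5 and 828.4 in wild-type liver on FD and ND. Among 9 kept hepatocyte markers the sums were 26526 and 30563 in HSL-null liver, against 26714 and 35482 in wild-type liver, on FD and ND in that order. For 14 leukocyte markers, which matter here because leukocytes express the inducible subunits, the sums were 3033 on FD and 3547 on ND in HSL-null liver, against 3111 on FD and 3990 on ND in wild-type liver. Signals of 18S ribosomal RNA were lower on FD in both genotypes. Their geometric means were 94.7 on FD and 283 on ND in HSL-null liver, against 80.5 and 187 in wild-type liver. The part of all these differences in the subunit ratios was not tested. The ratio of 3' to 5' signal of actin was between 1.32 and 1.49 on the 4 arrays, and that of Gapdh between 0.838 and 0.867.

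The inducible subunits differed little between diets, with log2 ratios of FD to ND from -0.17 to 0.083. Psmb8, which takes the place of the chymotrypsin-like subunit, had signals of 279.4 on FD and 296.2 on ND in HSL-null liver, against 303.2 on FD and 294.9 on ND in wild-type liver. Psmb9, which replaces the caspase-like subunit, had 142.5 and 160.5 in HSL-null liver on FD and ND, against 157.9 and 149.1 in wild-type liver on FD and ND. Psmb10, which replaces the trypsin-like subunit, had 255.4 on FD and 257.0 on ND in HSL-null liver, against 287.6 on FD and 288.3 on ND in wild-type liver. The lowest signal of each of these genes was that of HSL-null liver on FD, and the pools differed by at most 1.13-fold for any of the 3.

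Psme1, which encodes the alpha subunit of the alternative activator cap, had signals of 258.9 on FD and 275.2 on ND in HSL-null liver, against 337.4 on FD and 328.1 on ND in wild-type liver. Both HSL-null values lay under both wild-type values, with genotype ratios (log2, HSL-null over wild type) of -0.38 on FD and -0.25 on ND. These ratios are of the size of the probe set SD of 0.298, which comes from genes at large and may overstate the error of the subunits. Over the 4 inducible genes the median genotype log2 ratio was -0.16 on FD, with 4 of 4 below 0 (41.5% of kept genes), and -0.080 on ND, with 2 of 4 below 0 (52.6%). Median scaling turned the ND median to 0.051. The median for FD against ND was -0.086 in HSL-null liver and 0.040 in wild-type liver.

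Genes of antigen presentation and the interferon response, which often move with the inducible subunits, gave 20 kept genes of 28 listed. None of the 20 was 2-fold different in any of the 4 comparisons. Their median genotype log2 ratio was 0.083 on FD and 0.020 on ND, beside 0.067 and -0.018 over all kept genes. For FD against ND it was -0.14 in HSL-null and -0.21 in wild-type liver, beside 0.041 and -0.047 over all kept genes. Tap1, the peptide transporter gene next to Psmb9, had genotype log2 ratios of -0.17 on FD and 0.11 on ND, and Psmb9 had -0.15 and 0.11. Gbp3, an interferon-induced GTPase, and Iigp1 were 1.5-fold or more lower on FD than on ND in wild-type liver (-0.62 and -0.63). They were 2 of the 20 genes, against 9.48% of kept genes. Usp18 was 1.5-fold or more higher in HSL-null than in wild-type liver on ND, at 0.73, or 1 of 20 (2.36% of kept genes).

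Of the constitutive catalytic subunits, Psmb5 and Psmb6 had a low pool in wild-type liver on ND and Psmb7 did not. Psmb5, the chymotrypsin-like subunit, had signals of 644.8 on FD and 607.6 on ND in HSL-null liver, against 726.7 on FD and 465.6 on ND in wild-type liver. Wild type on ND stood alone as the low pool, and Psmb5 was 1.56-fold higher on FD than on ND in wild type, a log2 ratio of 0.64, beside 0.086 in HSL-null liver. It was the 1 of 38 subunits 1.5-fold higher (4.56% of kept genes), and 0 were 1.5-fold lower (9.48%). For diet in HSL-null liver, 0 of 38 were 1.5-fold higher (4.14%) or lower (2.3%). A second, dimmer probe set of Psmb5 gave log2 ratios for diet of 0.76 in wild type and -0.0024 in HSL-null liver. Between genotypes the brighter probe set gave -0.17 on FD and 0.38 on ND, and the dimmer one -0.43 and 0.33.

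Psmb6, the caspase-like subunit, had signals of 525.9 on FD and 572.0 on ND in HSL-null liver, against 567.7 on FD and 423.3 on ND in wild-type liver. The low pool was again wild type on ND. Its genotype log2 ratio was -0.11 on FD and 0.43 on ND, and that of FD to ND was -0.12 in HSL-null and 0.42 in wild-type liver. Psmb7, the trypsin-like subunit, ranged from 391.4 in HSL-null liver on FD to 436.1 in HSL-null liver on ND, with no log2 ratio beyond 0.16 in size. In wild-type liver the log2 ratio of FD to ND was 0.040 for Psmb8 and 0.083 for Psmb9. Psmb8 minus Psmb5 was -0.60 and Psmb9 minus Psmb6 was -0.34 on this scale.

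**Figure D2:**
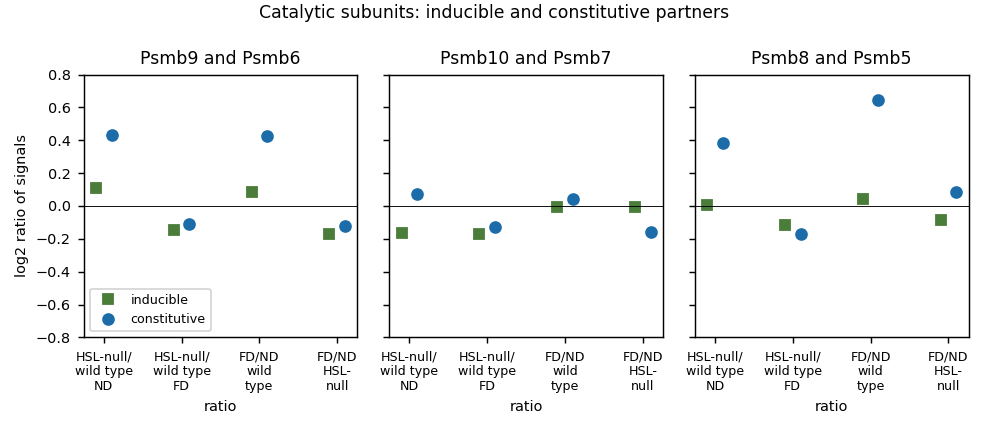
Log2 ratio of signals (vertical axis) of each inducible catalytic subunit (squares) and the constitutive subunit it replaces (circles), for HSL-null over wild type on ND and FD and for FD over ND in wild type and HSL-null liver. Psmb5 and Psmb6 lie at 0.64 and 0.42 for diet in wild type, where Psmb8 and Psmb9 lie at 0.040 and 0.083.

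Promoters are shown for Psmb5 and Psme4, the subunits that reached 1.5-fold, for Psmb6, which had the same low pool as Psmb5, and for the inducible Psmb8. Each is 250 bases before to 50 after the transcription start from RefSeq on GRCm38.p6, read 5′ to 3′ on the strand of the gene: Psmb5 at chr14:54617946-54618245 (minus strand), Psmb6 at chr11:70525107-70525406 (plus strand), Psme4 at chr11:30771525-30771824 (plus strand) and Psmb8 at chr17:34197945-34198244 (plus strand). Capitals mark TGACNNNGC, the core of the antioxidant response element that NFE2L1 and NFE2L2 bind, on either strand in the first 3, and TTCNNNGAA, a STAT site, in Psmb8.
Psmb5: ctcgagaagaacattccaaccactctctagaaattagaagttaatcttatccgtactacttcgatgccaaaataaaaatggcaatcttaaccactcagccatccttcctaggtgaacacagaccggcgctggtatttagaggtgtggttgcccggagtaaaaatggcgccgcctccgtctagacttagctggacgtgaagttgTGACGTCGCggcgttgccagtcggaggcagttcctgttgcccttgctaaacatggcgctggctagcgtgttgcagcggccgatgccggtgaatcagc
Psmb6: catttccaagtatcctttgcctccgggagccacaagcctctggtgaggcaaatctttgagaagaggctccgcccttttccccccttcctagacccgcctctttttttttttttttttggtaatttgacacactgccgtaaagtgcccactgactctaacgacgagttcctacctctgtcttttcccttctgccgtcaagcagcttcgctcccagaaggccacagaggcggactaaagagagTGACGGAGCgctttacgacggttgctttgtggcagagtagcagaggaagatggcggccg
Psme4: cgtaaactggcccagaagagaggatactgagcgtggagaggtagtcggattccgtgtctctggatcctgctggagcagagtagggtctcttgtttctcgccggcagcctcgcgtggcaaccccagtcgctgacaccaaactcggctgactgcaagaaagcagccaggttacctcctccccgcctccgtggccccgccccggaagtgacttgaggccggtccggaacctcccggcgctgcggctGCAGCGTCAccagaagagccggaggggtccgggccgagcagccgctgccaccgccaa
Psmb8: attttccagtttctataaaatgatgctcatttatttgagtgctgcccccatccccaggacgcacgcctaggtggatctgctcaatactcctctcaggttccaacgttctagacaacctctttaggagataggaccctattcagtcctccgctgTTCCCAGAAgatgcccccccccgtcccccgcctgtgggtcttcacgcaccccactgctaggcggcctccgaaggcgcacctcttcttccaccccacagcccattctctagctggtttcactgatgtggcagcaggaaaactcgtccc

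The match began 47 bases before the start in Psmb5, 9 before it in Psmb6 and 7 before it in Psme4, where it lies on the opposite strand. In Psmb8 the STAT match began 97 bases before the start. Windows were held for 34 of the 40 subunit genes, 36 windows in all. Of these, 6 held TGACNNNGC on either strand, or 16.7%, against 12.4% of 32851 windows of all genes. They belong to Psmb5, Psmb6, Psmc6, Psmd9, Psmd12 and Psme4, whose signals did not share an order of the pools. TTCNNNGAA was in 5.56% of subunit windows and 8.30% of all windows. The interferon response element, GAAA repeated after 2 bases, was in 4 windows, those of Psmb3, Psmd4, Psmd9 and Psme1, or 11.1%, against 3.44% of all windows. CCAAT, the NF-Y box, was in 36.1% of subunit windows and 37.4% of all windows. The matches describe the letters and were not tested as binding sites.

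Among the other beta subunits, Psmb3 had signals of 709.7 on FD and 775.6 on ND in HSL-null liver, against 984.7 on FD and 717.4 on ND in wild-type liver. The high pool was wild type on FD, which stood apart from the other 3. Psmb3 therefore had the lowest core genotype log2 ratio on FD, -0.47, and 0.46 for FD over ND in wild type. Psmb1, Psmb2 and Psmb4 stayed within 1.17-fold over the 4 pools by their brightest probe sets. A second, dimmer probe set of Psmb1 ranged more widely, from 108.4 in HSL-null liver on FD to 138.5 in HSL-null liver on ND. Its genotype log2 ratios were -0.28 on FD and 0.27 on ND, where the brighter one gave 0.015 and 0.19. All 7 constitutive beta genes were above 0 for FD over ND in wild type (44% of kept genes and 49.8% past the stricter filter were), with a median log2 ratio of 0.22, and 1 of 7 was above 0 in HSL-null liver (56.9% of kept genes). These counts depended on the scaling: quantile normalization gave 5 of 7 in wild type (50.9% of kept genes) and 3 of 7 in HSL-null liver (50.6%), and cyclic loess gave 7 of 7 (50.1%) and 3 of 7 (50.5%).

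The alpha ring genes had diet medians near 0. The 7 genes had a median log2 ratio of -0.016 for FD over ND in wild type and -0.0077 in HSL-null liver. Both HSL-null values lay above both wild-type values for Psma1, Psma2 and Psma3, with the largest ratios for Psma1. Psma1 had signals of 201.8 on FD and 190.0 on ND in HSL-null liver, against 154.3 on FD and 152.2 on ND in wild-type liver. Its genotype log2 ratio was 0.39 on FD and 0.32 on ND. Psma6 went the other way, with 554.4 on FD and 620.9 on ND in HSL-null liver, against 708.8 on FD and 694.2 on ND in wild-type liver, or log2 ratios of -0.35 and -0.16. Psma2 and Psma3 had the smallest ranges of all, within 1.08-fold, while Psma7 had 0.33 for FD over ND in wild type and Psma4 and Psma5 had -0.16 and -0.19.

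Of the 14 core genes as a class, 6 were above 0 for HSL-null over wild type on FD (58.3% of kept genes) and 10 on ND (47.3%). The medians of their log2 ratios were -0.12 on FD and 0.10 on ND, beside 0.067 and -0.018 over all kept genes. For FD over ND the core median was -0.036 in HSL-null and 0.038 in wild-type liver. The HSL-null median turned to 0.025 with quantile normalization and 0.023 with cyclic loess. In HSL-null liver the core ratios for diet lay between -0.16 and 0.087, with an SD of 0.086, where the SD was 0.32 over all kept genes and 0.29 past the stricter filter. In wild-type liver the core SD was 0.24, beside 0.44 and 0.39.

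Of the 5 kept ATPase genes of the regulatory particle, 4 had their lowest signal in wild-type liver on ND. This was so for 24.6% of kept genes and 28.5% past the stricter filter. Psmc2 had signals of 525.5 on FD and 534.6 on ND in HSL-null liver, against 561.9 on FD and 447.6 on ND in wild-type liver. Psmc5 had 211.1 on FD and 178.6 on ND in HSL-null liver, against 201.0 on FD and 155.5 on ND in wild-type liver. Wild type on ND was the lowest pool for both, as it was for Psmc1 and Psmc3. The 3 kept probe sets of Psmc3 had the same sign for FD over ND in wild type, from 0.27 to 0.53. All of them are suffix probe sets, whose probes may be shared with related transcripts. Over the 5 kept ATPase genes the median log2 ratio was 0.33 for FD over ND in wild type and -0.020 in HSL-null liver. Psmc6 was the exception, at -0.069 in wild type.

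Among lid subunits of the regulatory particle, Psmd6, Psmd7, Psmd8, Psmd12, Psmd13 and Psmd14 had their lowest signals in wild type on ND. Psmd3 and the brightest probe set of Psmd11 had theirs in wild type on FD. Over kept genes these 2 pools were the lowest for 24.6% and 36.2%. Psmd7 had signals of 302.7 on FD and 337.1 on ND in HSL-null liver, against 298.8 on FD and 257.8 on ND in wild-type liver. Its genotype ratio was 0.019 on FD and 0.39 on ND (log2), the highest of the regulatory genes on ND. Psmd14, the lid enzyme that removes ubiquitin chains from substrates, had 249.9 on FD and 228.6 on ND in HSL-null liver, against 208.6 on FD and 184.4 on ND in wild-type liver. It was higher in HSL-null liver on both diets, with log2 ratios of 0.26 on FD and 0.31 on ND. Psmd6, also of the lid, had 0.069 on FD and 0.29 on ND.

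Psmd13 had signals of 195.6 on FD and 201.8 on ND in HSL-null liver, against 237.6 on FD and 168.1 on ND in wild-type liver. Both HSL-null values lay between the wild-type values, giving genotype log2 ratios of -0.28 on FD and 0.26 on ND. Psmd8 had -0.22 on FD and 0.18 on ND. The lid gene Psmd3 ran the other way, with 276.1 on FD and 255.7 on ND in HSL-null liver, against 234.5 on FD and 300.7 on ND in wild-type liver. Its log2 ratios were 0.24 on FD and -0.23 on ND. Psmd12 was higher on FD in both genotypes, with log2 ratios of FD to ND of 0.44 in HSL-null and 0.28 in wild-type liver.

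Psmd11, another lid gene, was the subunit on which probe sets disagreed most. Its 3 kept probe sets gave genotype log2 ratios from -0.50 to 0.43 on ND, 0.93 apart, and from 0.11 to 0.31 on FD. The brightest of them gave 0.0025 on ND. No subunit had kept probe sets that differed by 1 or more in any of the 4 comparisons, and 4 subunits (Psmb1, Psmb5, Psmc3 and Psmd11) had more than 1 kept probe set.

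Of the Psmd genes that encode assembly chaperones of the regulatory particle, Psmd5 followed diet and Psmd10 followed the wild-type pools. Psmd5 had signals of 187.5 on FD and 143.7 on ND in HSL-null liver, against 185.8 on FD and 143.3 on ND in wild-type liver. Its log2 ratios of FD to ND were 0.38 in HSL-null and 0.37 in wild-type liver, so the genotypes gave nearly the same values. Psmd10, also known as gankyrin, had 44.4 on FD and 44.8 on ND in HSL-null liver, against 53.3 on FD and 37.6 on ND in wild-type liver. Psmd9 was lower in HSL-null liver on both diets, with log2 ratios of -0.15 on FD and -0.29 on ND. The ubiquitin receptor gene Psmd4 and the scaffold gene Psmd1 had log2 ratios between -0.18 and 0.13.

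Psme4, which encodes a nuclear activator cap of the core particle, and Psme3, the nuclear relative of Psme1, had the highest genotype ratios on FD among the regulatory genes. Psme4 had signals of 258.7 on FD and 224.6 on ND in HSL-null liver, against 166.2 on FD and 231.8 on ND in wild-type liver. Wild type on FD stood alone as the low pool, and the gene was 1.56-fold higher in HSL-null liver on FD, a log2 ratio of 0.64, and at -0.046 on ND. This is the single subunit 1.5-fold higher between genotypes on FD, or 1 of 38, against 9.17% of kept genes and 5.4% past the stricter filter. None of the 38 was 1.5-fold lower on FD (3.77% of kept genes), and on ND none was 1.5-fold higher (2.36%) or lower (4.37%). Psme3 had 85.3 on FD and 77.9 on ND in HSL-null liver, against 66.0 on FD and 72.1 on ND in wild-type liver, or log2 ratios of 0.37 and 0.11.

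**Figure D3:**
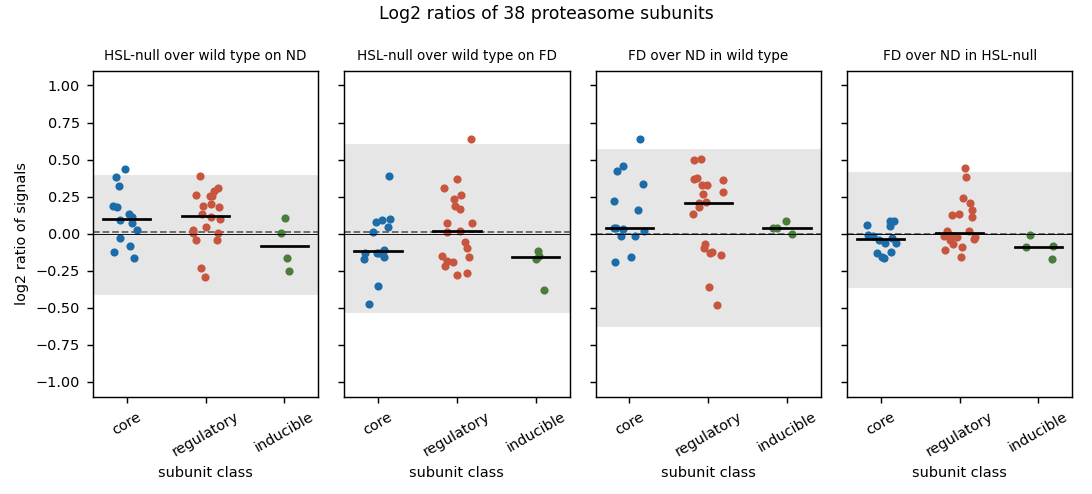
Log2 ratio of signals (vertical axis) of the 38 subunits by class, 1 panel for each comparison. Points are genes, solid bars class medians, dashed lines the median and grey bands the range from the 5th to the 95th percentile of the 2519 genes past the stricter filter. Psme4 lies at 0.64 for HSL-null over wild type on FD and Psmb5 at 0.64 for FD over ND in wild type, both above the band. Psmb6 at 0.43 for HSL-null over wild type on ND and Psmd12 at 0.44 for FD over ND in HSL-null liver also lie above it. Psmd12 has a mean signal of 77.1, so it did not pass the stricter filter itself, and it is read by a suffix probe set.

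Over the 20 kept regulatory genes the median genotype log2 ratio was 0.016 on FD and 0.12 on ND, with 11 and 16 genes above 0. The FD value turned to -0.15 with median scaling and -0.012 with cyclic loess. For FD over ND the median was 0.0030 in HSL-null liver (-0.15 with median scaling) and 0.21 in wild-type liver, with 10 and 13 genes above 0. Over all 38 subunits, 17 were above 0 for HSL-null over wild type on FD (58.3% of kept genes) and 28 on ND (47.3%), and for FD over ND 14 were above 0 in HSL-null (56.9%) and 26 in wild-type liver (44%). Median scaling gave 7, 33, 5 and 33 for the same 4 counts, where 39%, 66.3%, 32.3% and 60% of kept genes were above 0. It moved the all-gene median by -0.17 and 0.13 for genotype on FD and ND, and by -0.16 and 0.14 for diet in HSL-null and wild-type liver.

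These comparisons are not independent, since each array enters 1 genotype ratio and 1 diet ratio. The poly-A control transcripts had genotype log2 ratios of -0.53 on FD and 0.33 on ND, and of FD to ND of -0.24 in HSL-null and 0.63 in wild-type liver. The subunit medians over the 38 genes were -0.10 on FD and 0.10 on ND for genotype, and -0.018 and 0.11 for diet in HSL-null and wild-type liver. The signs of both are the same in the 4 comparisons as deposited, but the HSL-null diet median of the subunits was 0.0044 with quantile normalization and 0.011 with cyclic loess. The hybridisation controls, added after labelling, had genotype log2 ratios of 0.089 on FD and -0.24 on ND, and diet ratios of -0.32 in HSL-null and -0.64 in wild-type liver. The part of either set of controls in the subunit ratios was not tested. The genotype ratio on FD minus that on ND had a median of -0.13 over the 38 subunits, beside 0.092 over all kept genes, with 26 subunits below 0 (41.7% of kept genes and 49.3% past the stricter filter). Of the 38, Psmb3 (-0.59) was 1.5-fold or more below 0 in this difference (6.52% of kept genes) and Psme4 (0.68) above it (16.1%), and none was 2-fold above (4.93%) or below (1.39%).

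Among genes that build the proteasome, Pomp, Psmg1 and Psmg4 were higher on FD than on ND in wild-type liver. Pomp, the chaperone of core particle maturation, had signals of 662.7 on FD and 744.1 on ND in HSL-null liver, against 789.8 on FD and 546.3 on ND in wild-type liver. Psmg1 and Psmg4, chaperones of alpha ring assembly, had log2 ratios of FD to ND of 0.60 and 0.64 in wild-type liver and of -0.20 and 0.33 in HSL-null liver. The list of 6 genes also holds Akirin2, which serves the import of proteasomes into the nucleus. Over the 6 the median for FD over ND was 0.069 in HSL-null and 0.42 in wild-type liver. In wild-type liver single genes ran from -0.029 for Psmg3 to 0.64 for Psmg4. In HSL-null and wild-type liver 0 and 2 of the 6 genes were 1.5-fold or more higher (4.14% and 4.56% of kept genes). Psmg1 had the lowest genotype ratio on FD among them, at -0.57, and Psmg2 the highest on ND, at 0.56.

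Of 4 kept regulators of the proteasome genes, 3 were lower on FD than on ND in wild-type liver, as were 2691 of the 4829 kept genes. Nfe2l1 had signals of 230.1 on FD and 230.3 on ND in HSL-null liver, against 210.4 on FD and 292.6 on ND in wild-type liver. Its log2 ratio of FD to ND was -0.48 in wild type, and the small Maf partner genes Mafg and Mafk had -0.65 and -0.88. Mafg and Mafk were thus 1.5-fold or more lower, or 2 of the 4 (9.48% of kept genes). Mafk was dim, with signals from 20.8 to 38.2. The ratios of the 3 genes for FD over ND in HSL-null liver were -0.0013, -0.055 and -0.016. Nfe2l2, which encodes the NRF2 factor, had 0.35 in HSL-null and 0.011 in wild-type liver. The 12 kept NRF2 target genes, from a list of 15, had medians of 0.12 and 0.10 for FD over ND in HSL-null and wild-type liver. They ranged widely, as Gsta4, a glutathione transferase gene, had -0.12 and 1.68.

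Genes of proteins that work on the assembled proteasome, listed with the small lid subunit gene Sem1, did not share an order of pools. Ubqln2, which encodes a shuttle for ubiquitinated substrates, had signals of 52.2 on FD and 45.5 on ND in HSL-null liver, against 31.4 on FD and 45.7 on ND in wild-type liver. The low pool was wild type on FD, as for Psme4. Ubqln2 had a genotype log2 ratio of 0.73 on FD, and the deubiquitinase gene Uchl5 had 0.39 on FD and 0.55 on ND. Over 9 kept genes of this list the median genotype ratio was 0.24 on FD and -0.0040 on ND, and 1 of the 9 was 1.5-fold or more higher on FD (9.17% of kept genes).

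A list of heat shock genes, which share the protein quality control task, gave 14 kept genes of 17 listed. Most are cytosolic, but Hspd1 and Hspe1 encode mitochondrial chaperones. Hspd1 had genotype log2 ratios of 0.24 on FD and -0.072 on ND, and Hspe1 had -0.25 and 0.077. Over all 14 genes the median genotype log2 ratio was -0.56 on FD, with 5 genes 1.5-fold or more lower (3.77% of kept genes). On ND it was -0.20, with 3 genes (4.37%). No subunit was 1.5-fold lower in either comparison.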

How the data were processed

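Liver RNA pools of 4 groups of mice were measured on 1 Affymetrix MG_U74Av2 array each. The table deposited by the authors holds 1 linear intensity per probe set and array, and MAS5 is named in the submitters' processing notes. No version was stated. The deposited run settings name 1 lot of chips, 2 lots of solutions, 1 day of scanning and 4 fluidics modules. Each of the 4 arrays thus had its own module, whose effect cannot be told apart from that of the group. Of 12422 non-control probe sets, 10833 had 1 gene in the platform annotation, 396 had several and 1193 had none. The 42 genes matched by the rule were found in the RefSeq table of GRCm38.p6, with 0 symbols to change.

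Log2 values were taken after the floor of 6.1, the 25th percentile of non-control values. Kept probe sets had a mean of 26.9 or more, the median of the means, and the stricter filter was the 75th percentile. Ratios of 2-fold and 1.5-fold were counted. The number of arrays limits the precision, and no test was made. The script was tested on simulated data. Tools were Python 3.11.15, pandas 2.3.3, R 4.3.3 and limma 3.58.1. Alternatives were quantile normalization, median scaling, cyclic loess, a floor at 26.7, a pseudocount of 16, no filter, the stricter filter, the mean of probe sets, no suffix probe sets and the 1.5-fold threshold. Named genes were the inducible subunits, the 3 highest and 3 lowest core and regulatory genes of each comparison, subunits under the filter, Lipe and the leading members of the other lists, with others added to complete a group. The members, lists, motifs and rules were chosen with earlier results of these data known. The ubiquitin activation list had 1 kept gene, Uba3, and red blood cell markers served only as a check of the pools.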

Additional observations from a re-analysis of the deposited data

How the results depend on the processing

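The median of each subunit class was compared with that of all kept genes under 9 alternatives. Of 180 such values, 173 moved by less than 0.1 on the log2 scale, but median scaling shifts all genes alike and cannot move them. Of 1665 ratios of single subunits, 784 were not identical to the reported ones, since the filters and the higher floor left every kept subunit's ratio as it was. The largest move was 0.24 with cyclic loess, 0.25 with quantile normalization, 0.26 without suffix probe sets and 0.298 with median scaling. For HSL-null over wild type on FD, quantile normalization moved the distance of the 38 subunits from all genes to -0.052, from a main value of -0.17, and that of the core to -0.053, from -0.19. For the genotype ratio on FD minus that on ND, quantile normalization gave -0.083 over all subunits, -0.061 for the core and -0.10 for the inducible genes. Cyclic loess gave -0.15 for the core and -0.12 for the inducible genes, where the main values were -0.22, -0.28 and -0.22. The cause was not tested. Counts of subunits 2-fold different were 0 in every comparison under these alternatives, and a 1.5-fold threshold gave 1 for genotype on FD, 1 for diet in wild type and 2 for the difference between genotype ratios. At the 1.5-fold threshold, median scaling gave 4 subunits higher for diet in wild type (1 in the reported processing) and 0 higher with 1 lower for genotype on FD, and 10 that far below 0 in the difference between genotype ratios (1 as reported). Cyclic loess gave 2 for diet in wild type, and without the filter 1 was higher for diet in HSL-null liver (0 as reported). The count 1.5-fold or more below 0 in the difference was 2 with quantile normalization, with the mean of probe sets and without suffix probe sets, and 0 with the pseudocount. No paired analysis was possible because each group had 1 array. For the same reason no array could be left out of a comparison.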

Other observations

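Ubiquitin conjugating enzymes and their variants, most of which carry activated ubiquitin for transfer to proteins, gave 16 kept genes of 28 listed. Their median genotype ratio (log2, HSL-null over wild type) was 0.18 on FD and 0.17 on ND, with 10 and 14 genes above 0 (58.3% and 47.3% of kept genes). Ube2v2 had signals of 37.5 on FD and 30.2 on ND in HSL-null liver, against 13.9 on FD and 32.4 on ND in wild-type liver. Its log2 ratio of 1.43 on FD was the largest of the list. Ube2v2 was dim, and that ratio rests on the wild-type signal of 13.9, under the 26.9 asked of a mean. It was the 1 of 16 genes 2-fold higher on FD (1.86% of kept genes). Ube2d3 was higher in HSL-null liver on both diets, at 0.37 on FD and 0.51 on ND, and so was Ube2e1, at 0.71 and 0.51. Genes of the p97 complex, which extracts ubiquitinated proteins from membranes and assemblies, had medians of 0.11 on FD and 0.15 on ND over 7 genes, and Ufd1 had 0.52 and 0.26. Uba3, which encodes a subunit of the enzyme that activates NEDD8, had 0.48 on FD and -0.072 on ND. Red blood cell markers had medians of 0.032 on FD and -0.40 on ND over 4 genes.

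Psme3ip1, which encodes a protein that binds the nuclear activator Psme3, had signals of 86.5 on FD and 96.4 on ND in HSL-null liver, against 81.5 on FD and 125.4 on ND in wild-type liver. Psmc3ip, a gene of meiotic recombination, had signals from 1.5 to 2.5, under the floor on every array.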
